A study of Rhinolophus ferrumequinum with 8 samples.

Results

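The collagen chain genes are the rows of the deposited expression table whose symbol is COL, a number, A and a number. They numbered 44 of the 19652 genes in the table, and the identifiers and symbols of all 44 matched the RefSeq annotation of assembly mRhiFer1_v1.p. Spleens of wild, female greater horseshoe bats (Rhinolophus ferrumequinum) were profiled by RNA sequencing in 4 states with 2 biological replicates each, 8 libraries in all. Summer active bats were taken in July and bats in torpor, the cold phase of hibernation, in November. Arousal bats and winter active bats also came from November, at 2 h and 26 h after capture. The bats carried no engineered allele and no drug is named, their ages are not given in the labels, and whether a replicate is 1 bat is not stated, so p-values measure the spread between these samples. The question of the design is how the spleen differs between these states.

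Collagens are the main structural proteins of the extracellular matrix, and each molecule is a trimer wound from chains of the same or of different genes. Fibrillar collagens (types I, III and V) build the fibers of capsule and trabeculae, collagen IV forms the sheets of basement membranes, and collagen VI forms beaded filaments around cells. In the spleen, fibroblastic reticular cells, smooth muscle, vessel walls and the mesothelium of the capsule carry much of this matrix. No sequences are printed here, since none of the files used holds them.

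Values are rescaled TPM (a transcript abundance per length), and chains are set beside each other on that scale. How transcripts were summed and rescaled is not stated. Whether levels of different chains are comparable was therefore not tested, and shares, ranks and ratios between chains carry that limit. Libraries are called by their state with the replicate number behind it. The files hold no counts and the depth is unknown. Column totals were highest in summer active and lowest in arousal, with no overlap between states, so scale and state cannot be told apart. The limma test took log2(value + 1) of the 13542 genes whose 8-library mean reached 1, and a Benjamini-Hochberg adjusted p under 0.05 over all of them was the threshold. Of the 44 chains, 26 reached that mean and 18 did not.

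Spleen identity genes were present in every library: TLX1, a transcription factor needed for spleen formation, lay between 15.4 and 46.0, and SPIC, of red pulp macrophages, between 143.7 and 939. The reticular cell gene PDGFRB lay between 32.4 and 90.9. CD79B, of B cells, stood at 1074 and 916 in summer active, 240 and 252 in torpor, 182 and 173 in arousal, and 380 and 205 in winter active. Replicates of a state correlated at r = 0.915 in summer active, against 0.937 to 0.959 in the November states, over log2 values of tested genes. Libraries also differed in transcripts of other tissues. The summed squamous epithelium markers (3 in the table) reached 1641 in summer active 2, against at most 1.48 elsewhere. Gastric markers (6) reached 1837 in winter active 2 and 131.7 in torpor 2, against at most 0.454 elsewhere. Hepatocyte markers (7) reached 17134 in arousal 2, against 50.7 to 2289 elsewhere. Pancreatic markers (5) came to 1334 and 323.8 in the torpor libraries and 697 in arousal 2, and elsewhere to at most 95.4. Adipocyte markers (7) came to 280.1 in arousal 2 and 282 in winter active 2, and elsewhere to at most 90.8. Platelet markers (6) lay between 21.8 and 113.1. The part of these tissues in any collagen value was not tested.

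The spleen collagen signal was made of few chains. The sum over all 44 chains was 728 in summer active 1 and 265.5 in summer active 2, 378.5 and 455 in torpor 1 and 2, 510 and 468 in arousal 1 and 2, and 499 and 435 in winter active 1 and 2. Summer active thus held the highest and the lowest sum, and the 6 November libraries lay between them. As means, the sum was 497 ± 327 in summer active, 417 ± 54.0 in torpor, 489 ± 29.7 in arousal and 467 ± 45.2 in winter active (SD, n = 2 each). The difference between the summer replicates exceeded every difference between state means. Scaling each column to a total of 1000000 put the lowest sum again in summer active 2 (199.4) but the highest in arousal 1 (684).

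**Figure D1:**
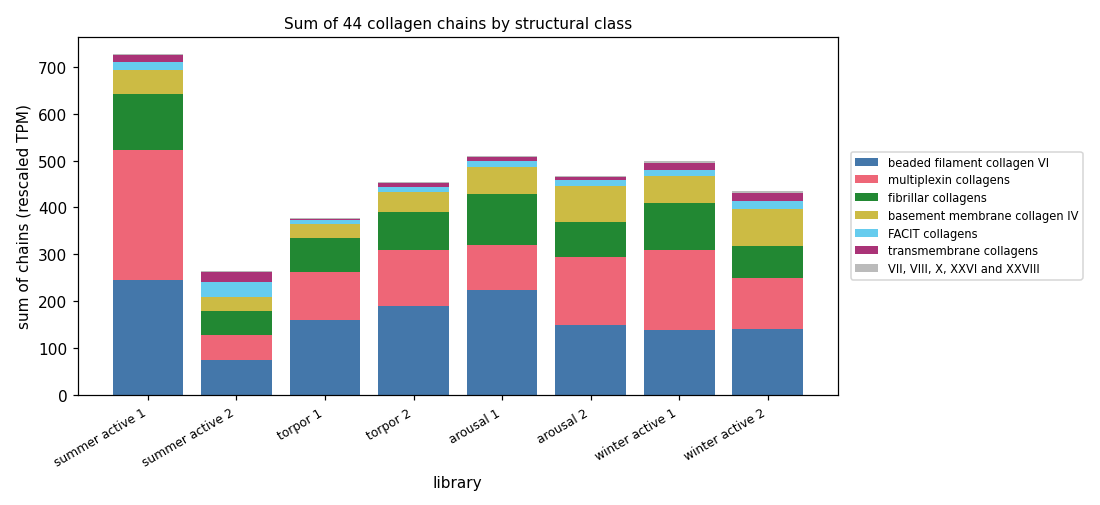
Summed rescaled TPM (y axis) of the 44 collagen chains in each of the 8 libraries (x axis), stacked by structural class. The bars run from 265.5 in summer active 2 to 728 in summer active 1, and collagen VI and the multiplexins are the tallest blocks in every bar except arousal 1, where the fibrillar collagens exceed the multiplexins.

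The 7 chains with a mean of at least 10 gave between 66.8% and 89.9% of the sum. Their 8-library means were 125.7 for COL18A1, 91.3 for COL6A2, 67.5 for COL6A1, 38.3 for COL1A2, 25.1 for COL3A1, 22.9 for COL4A2 and 17.8 for COL4A1. COL18A1, the highest, took rank 1001 of all 19652 genes. Another 19 chains had means of 1 to 10. By class, collagen VI gave 28.0% to 44.1% of the sum, the multiplexins 18.6% to 38.2%, the fibrillar collagens 15.5% to 21.4% and collagen IV 6.92% to 18.3%.

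Among libraries, summer active 2 and torpor 1 stood lowest. Each held the lowest value of 11 of the 26 tested chains, where the same libraries held the lowest value of 18.4% and 17.9% of all tested genes. Summer active 1 held the highest value of 9 chains and torpor 1 and torpor 2 that of none, beside 11.1%, 11.2% and 7.59% of all tested genes. Summer active 2 lay below the other 7 libraries in 6 of the 7 leading chains and above them in 3 tested chains, COL14A1, COL17A1 and COL9A2.

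**Figure D2:**
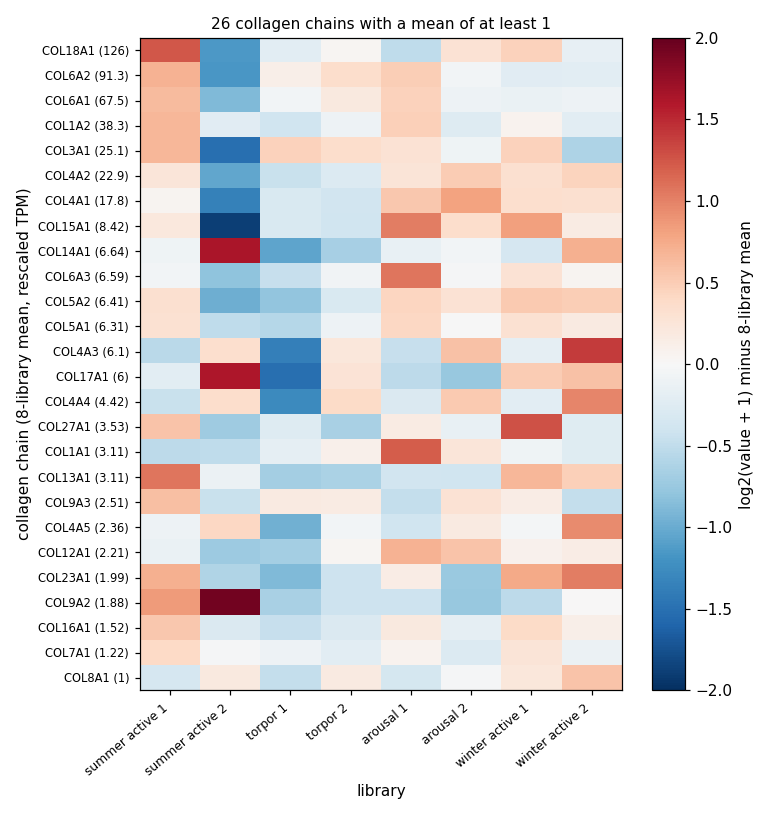
Map of the 26 tested collagen chains (rows, ordered by 8-library mean in rescaled TPM, given in brackets) in 8 libraries (columns), colored by log2(value + 1) minus the chain's mean over libraries. Most leading chains are blue in summer active 2, while COL14A1, COL17A1 and COL9A2 are red there.

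Multiplexins are basement membrane collagens that carry glycosaminoglycan chains, and the tail of COL18A1 is cut to endostatin, an inhibitor of vessel growth. COL18A1 stood at 269 and 50.5 in summer active, 97.2 and 115.7 in torpor, 79.3 and 137.4 in arousal, and 155.9 and 100.7 in winter active (rescaled TPM, replicates 1 and 2). The summer libraries enclosed those of the other 3 states. Its log2 differences lay between -0.16 and 0.26 in the 6 comparisons (SE 0.70, smallest limma adjusted p = 0.894). COL15A1, the other multiplexin, of vessel and muscle basement membranes, stood at 8.44 and 1.23 in summer active, 5.63 and 5.21 in torpor, 15.7 and 9.49 in arousal, and 13.5 and 8.19 in winter active. Both arousal libraries lay above both summer libraries (12.6 ± 4.39 against 4.83 ± 5.10, SD, n = 2 each), with a log2 difference of 1.53 (SE 0.63, limma adjusted p = 0.163).

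Collagen VI is a heterotrimer of an alpha-1, an alpha-2 and a longer chain such as alpha-3. COL6A2 stood at 139.0 and 37.6 in summer active, 93.2 and 109.3 in torpor, 121.3 and 82.5 in arousal, and 72.9 and 74.3 in winter active. COL6A1 stood at 100.6 and 34.6 in summer active, 62.0 and 74.0 in torpor, 89.7 and 60.1 in arousal, and 58.6 and 60.1 in winter active. COL6A1 and COL6A2 ranked the libraries alike at both ends, with summer active 1 highest, arousal 1 next and summer active 2 lowest. Both winter active libraries lay below both torpor libraries for each chain, with log2 differences of -0.45 for COL6A2 and -0.19 for COL6A1 (limma adjusted p = 0.735 and 0.882). COL6A3, whose chain is the longest of the trimer, was lower, at 5.81 and 3.07 in summer active, 4.17 and 5.75 in torpor, 13.9 and 6.01 in arousal, and 7.70 and 6.37 in winter active. Its ratio to COL6A2 lay between 0.0418 and 0.114, and was 0.0728 to 0.114 in the arousal and winter active libraries, against 0.0448 and 0.0526 in torpor and 0.0418 and 0.0817 in summer active, whose replicate 2 lay inside the arousal and winter active range. The COL6A1 to COL6A2 ratio lay between 0.665 and 0.919, narrower than either chain's own range.

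In type I collagen the usual molecule holds more alpha-1 than alpha-2 chains, and type III, a homotrimer of COL3A1, makes the reticular fibers of spleen. COL1A2 stood at 59.0 and 31.6 in summer active, 27.7 and 34.4 in torpor, 52.1 and 30.7 in arousal, and 39.1 and 31.8 in winter active. COL1A1, its partner, was far lower, at 1.66 and 1.68 in summer active, 2.36 and 3.07 in torpor, 7.79 and 3.53 in arousal, and 2.60 and 2.22 in winter active. The COL1A1 to COL1A2 ratio was 0.0281 and 0.0531 in summer active, 0.0850 and 0.0894 in torpor, 0.149 and 0.115 in arousal, and 0.0666 and 0.0700 in winter active. The ratio did not overlap between any of the states, was highest in arousal, and stayed under 0.15 in every library. It is a description with no test, and how well the authors' quantification assigns COL1A1 reads was not tested. How often ratios of other genes part the states was not computed. COL1A1 itself averaged 5.66 ± 3.01 in arousal and 1.67 ± 0.0121 in summer active (SD, n = 2 each), a log2 difference of 1.24 (SE 0.35, limma adjusted p = 0.0769).

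**Figure D3:**
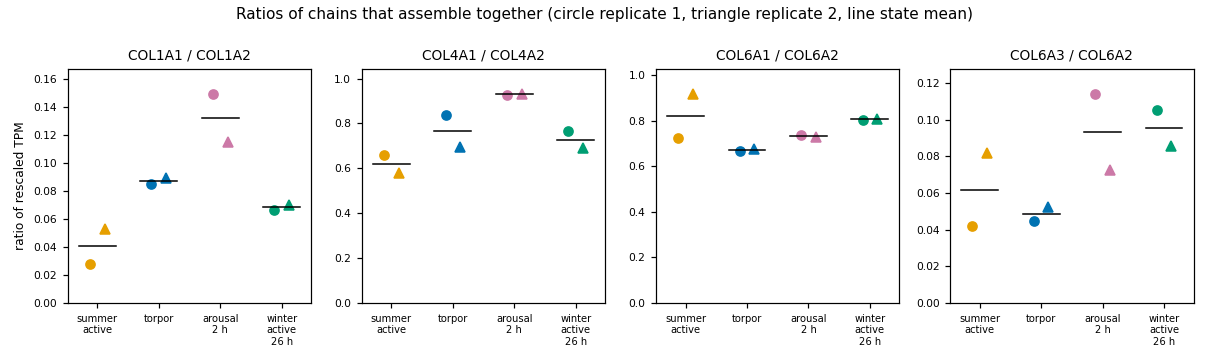
Ratios of rescaled TPM (y axes, from 0) between chains that assemble together, by state (x axes), for the 8 libraries. Circles are replicate 1, triangles replicate 2 and lines state means; the COL1A1 to COL1A2 ratio lies between 0.0281 and 0.149 with no overlap between states, and the COL4A1 to COL4A2 ratio is highest in arousal (0.926 and 0.933).

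COL3A1 stood at 36.7 and 7.35 in summer active, 31.8 and 29.6 in torpor, 28.1 and 21.6 in arousal, and 31.7 and 14.5 in winter active. Replicate 1 lay above replicate 2 in every state, a pattern that 7.42% of all tested genes shared. COL5A1 and COL5A2, whose collagen V sits inside type I fibrils and limits their width, lay between 3.81 and 8.44 and between 2.52 and 8.95. Their ratio lay between 0.804 and 1.59, and in arousal it overlapped both summer active and winter active. COL5A2 averaged 8.86 ± 0.124 in winter active and 3.80 ± 1.16 in torpor (SD, n = 2 each), a log2 difference of 1.06 (SE 0.42, limma adjusted p = 0.362). COL27A1, a fibrillar chain known from cartilage, lay between 1.51 in summer active 2 and 8.85 in winter active 1. The others of this class, COL2A1, COL11A1, COL11A2, COL24A1 and COL5A3, had means under 1.

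COL4A1 and COL4A2 form the collagen IV of nearly all basement membranes, vessels included, and are neighboring genes. COL4A1 stood at 16.9 and 5.75 in summer active, 13.0 and 12.3 in torpor, 24.0 and 29.0 in arousal, and 20.8 and 20.6 in winter active. COL4A2 stood at 25.6 and 9.95 in summer active, 15.5 and 17.8 in torpor, 25.9 and 31.1 in arousal, and 27.1 and 29.9 in winter active. For both genes the 4 arousal and winter active libraries lay above both torpor libraries and both summer libraries. For COL4A2 the margin was small, at 25.9 in arousal 1 against 25.6 in summer active 1. Of all tested genes, 31.9% lay above torpor without overlap in arousal and 29.6% in winter active. Above summer active the shares were 32% and 27.2%, and the share for all 4 comparisons at once was not computed. Against torpor, COL4A1 differed by 1.00 in arousal and 0.66 in winter active (SE 0.42 each, limma adjusted p = 0.245 and 0.505), and COL4A2 by 0.74 in each (SE 0.39, limma adjusted p = 0.322 and 0.442). The COL4A1 difference of arousal from summer active was 1.32 (SE 0.42, limma adjusted p = 0.0944). It was 2.02 in the fit without summer active 1 and 0.62 in the fit without summer active 2. Summer active 2, at 5.75, lay below the other 7 libraries for this gene. After scaling to equal totals the difference passed (2.04, limma adjusted p = 0.0112), beside an all-gene median of 0.77. No difference of COL4A1 or COL4A2 passed in the fit of all 8 libraries as deposited.

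**Figure D4:**
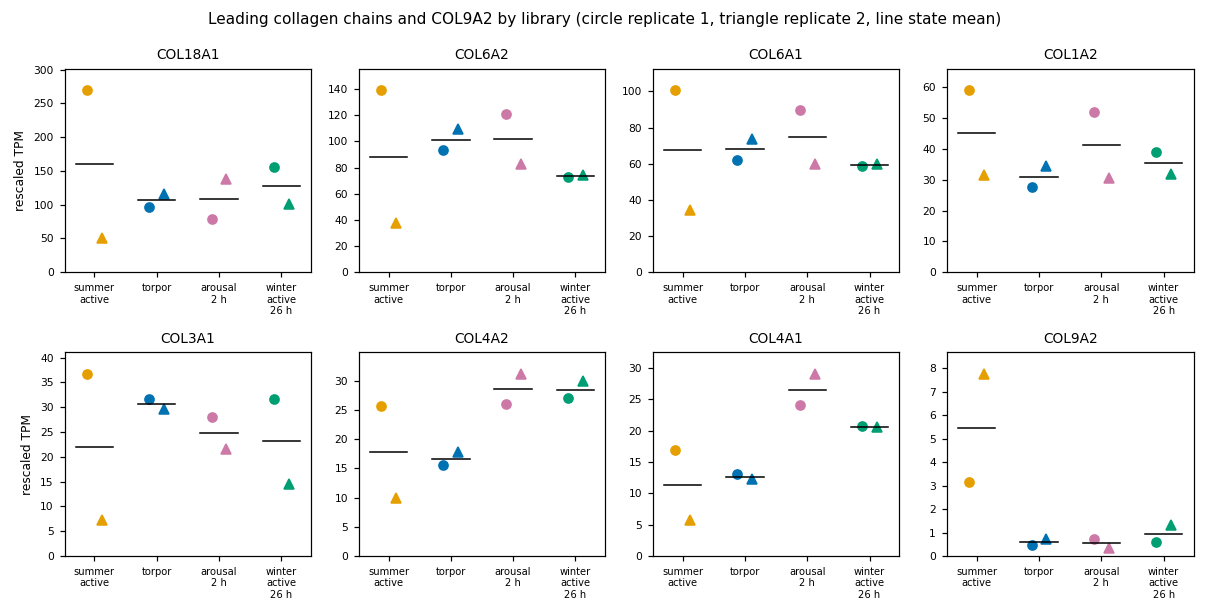
Rescaled TPM (y axes, from 0) of the 7 collagen chains with a mean of at least 10 and of COL9A2, by state (x axes). Circles are replicate 1, triangles replicate 2 and lines state means (n = 2); COL4A1 and COL4A2 are higher in all 4 arousal and winter active libraries than in torpor, and COL9A2 is higher in summer active than in every November library.

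The minor collagen IV chains COL4A3, COL4A4 and COL4A5 assemble with each other in special basement membranes, such as those of kidney filter and lung. COL4A3 stood at 3.24 and 6.79 in summer active, 1.37 and 6.19 in torpor, 3.45 and 8.22 in arousal, and 4.41 and 15.1 in winter active. COL4A4, its neighbor in the genome, stood at 2.62 and 5.30 in summer active, 1.03 and 5.40 in torpor, 3.05 and 6.05 in arousal, and 3.24 and 8.69 in winter active. COL4A5 lay between 0.614 in torpor 1 and 5.08 in winter active 2. All 3 chains were lowest in torpor 1, highest in winter active 2, and higher in replicate 2 than in replicate 1 of every state. That order held for 11.5% of all tested genes and for 5 of the 26 chains, COL14A1 and COL8A1 being the others. It also held for all 6 tested markers of mesothelium, the cell layer over the spleen surface, whose summed level over 7 markers was 326 and 619 in summer active, 376 and 821 in torpor, 416 and 672 in arousal, and 255.5 and 658 in winter active. CALB2, one of the 7, was near 0 (at most 0.124). For the members of the other lists the replicate order was not counted. The summed collagen degradation genes had it too, at 947 and 1074 in summer active and 1118 and 1425 in torpor. They stood at 1018 and 1490 in arousal and 871 and 1274 in winter active. Unlike the 3 chains, the mesothelial sum was highest in torpor 2 and lowest in winter active 1. Winter active 2 also held gastric markers at 1837 and adipocyte markers at 282. COL4A1 did not follow the replicate order, and the part of mesothelial or other cells in the minor chains was not tested. The COL4A3 to COL4A4 ratio, chosen after the values were seen, stayed between 1.13 and 1.74.

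**Figure D5:**
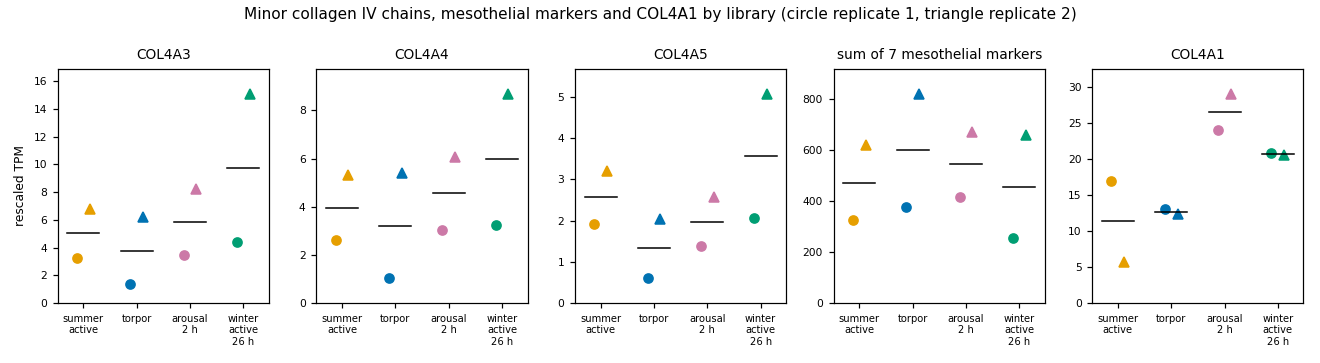
Rescaled TPM (y axes, from 0) of COL4A3, COL4A4 and COL4A5, the sum of 7 mesothelial markers, and COL4A1, by state (x axes), with circles for replicate 1, triangles for replicate 2 and lines for state means. In the first 4 panels the triangle lies above the circle in every state; COL4A1 lacks that order.

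FACIT collagens lie on the surface of fibrils and link them to other matrix. COL9A2, a chain of the cartilage collagen IX, was the only chain to pass in any of the 6 comparisons with all 8 libraries as deposited. It stood at 3.16 and 7.74 in summer active, 0.461 and 0.720 in torpor, 0.721 and 0.357 in arousal, and 0.599 and 1.31 in winter active. All 6 November libraries lay below both summer libraries, which was so for 10.3% of tested genes. The means of torpor, arousal and winter active were 0.590, 0.539 and 0.952. COL9A2 thus met the filter of a mean of at least 1 only through summer active, where it is high. COL9A2 was lower in arousal than in summer active, at 0.539 ± 0.257 against 5.45 ± 3.24 (SD, n = 2 each). The log2 difference was -1.98 (SE 0.42, limma adjusted p = 0.0442), where 3.14% of tested genes were called lower and 2.39% higher. Between arousal and torpor it was -0.052 (limma adjusted p = 0.961). Differences of -1.93 in torpor and -1.65 in winter active from summer active did not pass (limma adjusted p = 0.108 and 0.155). The call was lost in 7 of the 8 fits without 1 library, with adjusted p = 0.0719 to 0.140, and kept without summer active 1 (adjusted p = 0.0202). With no filter on low values it was also lost (adjusted p = 0.0640). Its partner COL9A3 lay between 1.45 and 4.14 and COL9A1 reached at most 0.0491.

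COL14A1, which binds fibrils near decorin, stood at 5.07 and 19.1 in summer active, 2.12 and 3.08 in torpor, 4.84 and 5.26 in arousal, and 4.12 and 9.61 in winter active. Torpor lay below summer active in all libraries (log2 difference -1.63, SE 0.58, limma adjusted p = 0.243). COL12A1, a relative found in dense connective tissue, averaged 3.72 ± 0.281 in arousal, against 1.51 ± 0.878 in torpor and 1.30 ± 0.644 in summer active (SD, n = 2 each). Its log2 differences were 0.96 and 1.06 (SE 0.35 each, limma adjusted p = 0.212 and 0.102). COL16A1 lay between 0.771 and 2.56.

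Transmembrane collagens sit in the plasma membrane with the collagenous part outside. COL13A1, found at cell contacts, stood at 6.88 and 2.45 in summer active, 1.34 and 1.40 in torpor, 1.88 and 1.83 in arousal, and 4.91 and 4.23 in winter active. Winter active lay above torpor and above arousal in all libraries, by 1.23 and 0.96 (SE 0.39 each, limma adjusted p = 0.314 and 0.825). Both torpor libraries lay below both summer libraries (log2 difference -1.14, limma adjusted p = 0.233). COL23A1 averaged 3.94 ± 0.619 in winter active and 0.716 ± 0.402 in torpor (SD, n = 2 each), a log2 difference of 1.54 (SE 0.51, limma adjusted p = 0.314). COL17A1, the collagen of hemidesmosomes that anchor epithelium, stood at 3.98 and 16.7 in summer active, 1.04 and 6.00 in torpor, 3.00 and 2.41 in arousal, and 7.24 and 7.65 in winter active. Its highest library, summer active 2, was also the one with the squamous keratin KRT4 at 1617 and the desmosomal DSG3 at 21.9, and that link was not tested. The anchoring fibril chain COL7A1 lay between 0.816 and 1.88 and COL8A1, of endothelial and corneal membranes, between 0.408 and 1.88.

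The 18 chains with a mean under 1 were COL2A1, COL4A6, COL5A3, COL6A5, COL6A6, COL8A2, COL9A1, COL10A1, COL11A1, COL11A2, COL19A1, COL20A1, COL21A1, COL22A1, COL24A1, COL25A1, COL26A1 and COL28A1. Only COL5A3 reached 1 in any library (1.24 in summer active 2). COL2A1, the main chain of cartilage, was at most 0.229 and COL10A1, of hypertrophic cartilage, at most 0.827. COL2A1, COL6A6, COL9A1, COL20A1 and COL28A1 were listed at 0 in at least 1 library. Summer active 2 held the highest value of 7 of these 18 chains. It held that of 19.5% of tested genes, and the share over genes with a mean under 1 was not computed.

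Winter active against torpor and arousal against torpor compare separate samples of these states. Leaving torpor and the time after capture (26 h and 2 h) cannot be told apart in them. No chain passed in either comparison, where 0% of the 13542 tested genes passed (limma). At an unadjusted p under 0.05, 3 chains were higher in winter active (COL5A2, COL13A1 and COL23A1) and 2 in arousal (COL4A1 and COL12A1), and none was lower. The same held for 13.2% of tested genes in winter active (9.09% higher, 4.11% lower) and 19.7% in arousal (12.8% higher, 6.88% lower). In winter active 21 of 26 chains lay higher than in torpor on average, with a median log2 difference of 0.60 against 0.079 over all tested genes. Both libraries of winter active lay above both of torpor in 15 of the 26, against 29.6% of all tested genes, and below in 3, against 21.3%. The 3 below were COL6A1, COL6A2 and COL9A3. In arousal 19 of 26 lay higher than in torpor, with a median of 0.39 against 0.11 over all genes, and 12 did so without overlap, against 31.9% of genes, with 1, COL3A1, below, against 22.2%. The size of these medians changed with the libraries and settings, and their sign did not in those run. For winter active the median was 0.28 without torpor 1, 0.40 under quantile normalization and 0.23 over all 44 chains with no filter. For arousal it was 0.16 without torpor 1, 0.76 without torpor 2, 0.63 with a pseudocount of 0.1, 0.18 under quantile normalization and 0.11 with no filter. Scaling to equal totals put 26 of 26 chains higher in arousal than in torpor, with a median of 0.70 against 0.45 over all genes.

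Several marker lists also had medians above 0 in both comparisons, and others did not. Against torpor, the median log2 difference of the 10 endothelial markers was 0.85 in winter active and 0.78 in arousal, that of 8 basement membrane partners such as LAMB1 and LAMC1 (laminin chains) 0.64 and 0.66, and that of 9 smooth muscle and pericyte markers 0.59 and 0.78. For 10 fibroblast and reticular cell markers it was 0.53 and 0.36, for 7 adipocyte markers 0.74 and 0.63 and for 6 mesothelial markers 0.34 and 0.37, beside 0.079 and 0.11 over all tested genes, and none of these lists had a member past the threshold in these comparisons. In the same order, the medians were 0.15 and -0.11 for collagen synthesis and folding and 0.015 and -0.13 for collagen degradation. They were 0.22 and 0.19 for processing and crosslinking and 0.64 and 0.15 for collagen receptors. Platelet markers had 0.047 and -1.34, gastric 2.06 and -1.43 and squamous 0.25 and -0.077. Hepatocyte markers had -2.19 and 4.04 and pancreatic markers -3.86 and -2.11. Summed endothelial markers were 310 and 316 in winter active and 315 and 268 in arousal, against 172.8 and 186.6 in torpor. In whole tissue, fewer cells of a type and less RNA per cell cannot be told apart.

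Comparisons with summer active ask how each November state differed from July, and share the same 2 summer libraries. In torpor 10 of 26 chains lay higher and 16 lower, with a median of -0.23 against -0.055 over all genes. Winter active had 20 higher and 6 lower, with a median of 0.35 against 0.046, and arousal 14 higher and 12 lower, with a median of 0.11 against 0.083. Called chains numbered 0, 0 and 1 of 26 for torpor, winter active and arousal, where 0.561%, 1.03% and 5.52% of all tested genes were called. Without overlap between libraries, 1 chain was higher and 4 lower in torpor (20.4% and 26% of tested genes), 8 higher and 1 lower in winter active (27.2% and 21.9%), and 6 higher and 3 lower in arousal (32% and 25.3%). At an unadjusted p under 0.05, 0 chains were higher and 3 lower in torpor (6.28% and 9.71% of genes), 1 and 1 in winter active (7.88% and 6.96%), and 4 and 1 in arousal (15.7% and 13.2%). These medians changed with the libraries and settings used. For torpor the median was 0.21 without summer active 1, -0.56 without summer active 2 and 0.057 without torpor 1. It was -0.13 with no filter, -0.048 for the 14 chains with a mean of at least 5, -0.10 under quantile normalization and 0.087 after scaling to equal totals (0.28 over all genes). For winter active it was 0.72 without summer active 1, 0.14 without summer active 2, 0.035 without winter active 1 (0.059 over all genes), 0.096 with no filter and 0.74 after scaling (0.55 over all genes). For arousal it was 0.53 without summer active 1, -0.43 without summer active 2, -0.028 with no filter, 0.38 for the 14 chains, 0.0024 under quantile normalization and 0.71 after scaling. Scaling to equal totals moved the all-gene median of arousal against summer active to 0.77, and 7 chains were then called higher and 1 lower, among 5868 genes called higher and 263 lower, against 323 and 425 as deposited. In winter active against arousal no chain passed, where 0% of genes did (limma; 5.45% had an unadjusted p under 0.05, as did 2 chains, COL13A1 higher and COL1A1 lower, where 3.08% of genes were higher and 2.37% lower). Without overlap, 5 chains were higher and 4 lower in winter active than in arousal (18.1% and 21.3% of genes).

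Of the 58 tested genes that make, cut, bind or degrade collagen or join basement membranes, 1 was called in arousal against summer active (1.72%), where 5.52% of all tested genes were called, and none in the other 5 comparisons. Of 19 tested genes of collagen synthesis and folding, P4HA1, a catalytic subunit of prolyl 4-hydroxylase, rose in arousal against summer active, at 23.1 ± 2.13 against 11.7 ± 0.410 (SD, n = 2 each), with a log2 difference of 0.93 (SE 0.20, limma adjusted p = 0.0442). It stood at 11.9 and 11.4 in summer active, 17.7 and 16.9 in torpor, 21.6 and 24.6 in arousal, and 17.7 and 21.0 in winter active. For this gene every November library lay above both summer libraries, a pattern that 9.37% of tested genes shared. Its call was lost in all 8 fits without 1 library (adjusted p = 0.0706 to 0.146). None of the others passed in the 6 comparisons. SERPINH1, the collagen chaperone HSP47, lay between 34.6 in summer active 2 and 117.6 in torpor 2.

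No member passed among 15 tested genes of procollagen processing and crosslinking, 9 of collagen degradation, 7 collagen receptors and 8 basement membrane partners (smallest limma adjusted p = 0.146, 0.163, 0.133 and 0.142, each in arousal against summer active). Of all tested genes, 0% to 5.52% were called in the 6 comparisons. The highest genes of processing were SPARC (318.9 to 788), a collagen-binding matricellular protein, DCN (213.9 to 579), decorin, and LUM (63.7 to 158.3), lumican, and decorin and lumican coat fibrils. LOX, the crosslinking oxidase, ran between 2.45 in arousal 1 and 19.7 in summer active 1. Among degradation genes the inhibitors TIMP2 (335.8 to 586), TIMP1 (235.5 to 380) and TIMP3 (125.8 to 470) stood highest, while the collagenase MMP1 lay between 2.29 and 21.2. The integrin subunit ITGB1 (114.8 to 261), the receptor kinase DDR1 (11.6 to 37.6) and OSCAR, a collagen receptor of myeloid cells (2.41 to 23.5), led the receptors.

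Among 68 tested genes of the cell type lists, 3 passed (4.41%), each in arousal against summer active, where 5.52% of all tested genes were called. MCAM, of pericytes and endothelium, rose, at 34.3 ± 16.6 against 5.13 ± 2.15 (log2 difference 2.49), and the fat droplet gene PLIN1 of adipocytes rose, at 12.5 ± 8.86 against 0.183 ± 0.176 (3.35). The platelet receptor subunit GP1BB fell, at 1.89 ± 0.782 against 9.77 ± 0.534 (-1.92; SD, n = 2 each, limma adjusted p = 0.0442, 0.0442 and 0.0438). PLIN1 met the filter of a mean of at least 1 only through November libraries, where it is high. The summed adipocyte markers differed between the arousal libraries, at 50.9 in arousal 1 and 280.1 in arousal 2. With no filter on low values the 3 calls were lost (adjusted p = 0.0759, 0.0785 and 0.0752 in the order MCAM, PLIN1, GP1BB), and with the replicate number as a block the MCAM call was lost (adjusted p = 0.0520). In the 8 fits without 1 library the PLIN1 call was kept in 2 and lost in 6 (adjusted p = 0.0706 to 0.146), and the MCAM and GP1BB calls were lost in all 8 (0.0569 to 0.175 and 0.0541 to 0.142).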

How the data were processed

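For every gene in each library, the authors deposited a signal that is a rescaled TPM. Per the submitters' processing notes, kallisto 0.46.2 and sleuth 0.30.0 were used. How transcripts were summed to genes and rescaled, and against which reference, is not stated in the labels. Column totals were 1276850 and 1331820 in summer active, 986814 and 998271 in torpor, 745098 and 780490 in arousal, and 929456 and 828257 in winter active. The signal is thus not raw TPM, and the log-scale test planned for TPM was kept. These totals did not overlap between states, so the scale of the values and the state cannot be told apart.

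All genes with a mean of at least 1 (13542) entered 1 limma 3.58.1 fit (R 4.3.3; lmFit, contrasts, eBayes with a trend; 4 residual and 3.29 prior degrees of freedom) of log2(value + 1) over the 8 libraries, for 6 comparisons, with Benjamini-Hochberg adjustment over all genes tested. The script was tested on simulated data with independent noise for each gene and shifts planted in torpor. Those data held no outlying library and no column totals that differ by state, so the test does not cover these. Differences understate the change of low chains. The members and gene lists were chosen with earlier results of these data known. Every chain was accounted for, and those with a mean of at least 10 got the value of every library, as did low chains the text turns on, chosen after their values were seen. From other lists the genes past the threshold, or the 3 highest, were named. LOX, MMP1, SERPINH1, PDGFRB, TLX1, SPIC and CD79B were chosen outside that rule. The alternatives changed the pseudocount to 0.1, dropped the filter or raised it to a mean of 5, set column totals to 1000000, normalized by quantiles, added a replicate block, or left out each library in turn.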

Additional observations from a re-analysis of the deposited data

How the results depend on the processing

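Depth is unknown and 2 libraries a state limit every comparison. Of 60 log2 differences followed (each leading chain in 6 comparisons, other chains with an unadjusted p under 0.05, and called genes of the lists), 27 turned sign under at least 1 alternative, and none of the 5 called differences did. Where 1 library is left out, its state rests on a single sample, taken to have the spread of the rest. The cause of the changes was not tested, except that the filter and the left-out libraries change the number of genes or samples.

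Called chains in arousal against summer active numbered 1, against 0 with no filter, 0 with a mean of at least 5 (COL9A2 is then not tested), 8 after scaling columns to totals of 1000000 and 0 to 5 without 1 library. They ranged from 0 to 1 in torpor against summer active and from 0 to 4 in winter active against summer active without 1 library, with the higher count without summer active 1. Called genes of the whole table without 1 library ranged from 26 to 688 (748 with all 8) in arousal against summer active, 9 to 314 (76) in torpor against summer active, 15 to 382 (140) in winter active against summer active, 0 to 2 (0) in arousal against torpor and 0 to 1 (0) in winter active against arousal. With no filter they were 284 in arousal against summer active, 4 in winter active against torpor and 1 in winter active against arousal. After scaling they were 441 in arousal against torpor, 778 in winter active against summer active and 6131 in arousal against summer active. Scaling set the collagen sum to 684 in arousal 1, 599.5 in arousal 2 and 525.5 in winter active 2.

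Sign turns after scaling were 0.25, 0.35 and 0.60 for COL18A1 in torpor against summer active, arousal against torpor and arousal against summer active, 0.061 for COL3A1 and 0.36 for COL6A2 in arousal against torpor, 0.27 and 0.65 for COL1A2 in winter active and arousal against summer active, and -0.19 for COL4A2 in winter active against arousal. Under quantile normalization COL18A1 and COL6A2 turned to 0.10 and 0.13 in arousal against torpor.

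Without 1 library, differences that turned sign had these ranges. In torpor against summer active they were -1.34 to 1.06 for COL18A1, -0.25 to 1.92 for COL3A1, -0.39 to 1.02 for COL4A1, -0.60 to 0.68 for COL4A2, -0.56 to 0.95 for COL6A1 and -0.46 to 1.40 for COL6A2. In winter active against summer active they were -1.10 to 1.29 for COL18A1, -0.73 to 0.15 for COL1A2, -0.74 to 1.43 for COL3A1, -0.75 to 0.76 for COL6A1 and -0.91 to 0.95 for COL6A2. In arousal against summer active they were -1.36 to 1.03 for COL18A1, -0.55 to 0.33 for COL1A2, -0.56 to 1.62 for COL3A1, -0.45 to 1.07 for COL6A1 and -0.47 to 1.39 for COL6A2. In arousal against torpor they were -0.42 to 0.37 for COL18A1, -0.0095 to 0.74 for COL1A2, -0.17 to 0.40 for COL6A1 and -0.29 to 0.26 for COL6A2. In winter active against torpor they were -0.074 to 0.55 for COL18A1 and -1.03 to 0.045 for COL3A1. In winter active against arousal they were -0.13 to 0.65 for COL18A1, -0.55 to 0.20 for COL1A2, -0.72 to 0.35 for COL3A1 and -0.13 to 0.13 for COL4A2.

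Same-numbered replicates of 2 states did not deviate together throughout (correlations of deviations -0.191 to 0.322 over the 6 pairs of states), so the numbers are not taken to pair bats. With the replicate number as a block, COL9A2 kept its call (log2 difference -1.98, adjusted p = 0.0419), 1 chain was called as without the block, and of the called genes of the lists only MCAM lost its call. Called genes in arousal against summer active numbered 842 under the block. P4HA1 lost its call with no filter (adjusted p = 0.0608) and under quantile normalization (0.0597).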

Other observations

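Rows named COL that are not collagen chains were read beside them. COLEC12, a scavenger receptor with a collagen-like stalk, stood at 81.8 and 51.2 in summer active, 75.2 and 103.2 in torpor, 108.2 and 82.2 in arousal, and 95.3 and 132.5 in winter active. COLQ, the collagen-like tail of acetylcholinesterase, stayed at or under 0.790 in every library. These genes were chosen after their values were seen.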
